A study of Mus musculus with 4 samples.

Results

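The 10 genes described here are transcribed when the kinase ERK is active or act to restrain it: Dusp4, Dusp6, Spry1, Spry2, Spry4, Spred1, Spred2, Etv4, Etv5 and Ccnd1. They were taken by symbol from a count table of 55401 Ensembl mouse genes, and all 10 were found, each as 1 gene model. ERK is the last kinase of the RAS, RAF and MEK cascade that growth factor receptors switch on. Active ERK raises the transcription of its own inhibitors, so the RNA of these feedback genes is widely used as a readout of pathway output. DUSP phosphatases remove the activating phosphates from MAP kinases, Sprouty and SPRED proteins block the step from receptor to RAF, ETV4 and ETV5 are ETS-family transcription factors, and cyclin D1 carries the signal into the cell cycle.

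RNA came from pancreatic tissue beside Panc02 tumours, Panc02 being a mouse pancreatic ductal adenocarcinoma line, in wild-type (WT) mice and in mice labelled CRFR1-KO, or CRFR1 CKO in the design text, an abbreviation commonly used for a conditional knockout. CRFR1 is a receptor for the stress peptide corticotropin-releasing factor. Each genotype had 2 libraries, WT 1 and 2 and CRFR1-KO 1 and 2. By its title the series asks whether CRFR1 in mast cells acts through MAPK and SPHK1 signalling, but the Cre driver, strain and age are not in the labels used here. Nothing in the labels says that the libraries came from separate mice, so p-values cover the spread among the libraries alone, possibly technical.

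Total counts lay between 63495457 and 71203640 per library. Crhr1, which encodes CRFR1, had a count of 0 in all 4 libraries, so this gene gives no check of the genotype labels. Acinar markers, genes of the exocrine pancreas, summed to 393900 CPM in WT 1 and 489600 CPM in WT 2, with 530400 and 479600 CPM in the knockout libraries. On this scale WT 1 was low and WT 2 lay within the knockout range. All genes together summed to 846000 and 1088000 CPM in WT libraries 1 and 2, with 1121000 and 969600 CPM in the knockout libraries. The total was thus lowest in WT 1 as well, and the acinar sums are not shares of a library. Of 20 acinar genes, 18 had a positive log2 fold change. Of 9 mast cell markers 6 were at 0 in all 4 libraries, among them Cma1, Mcpt4 and Tpsb2. Cpa3 had between 4 and 39 counts and Hdc at most 8. Kit, which is also in the growth factor receptor list used here, had between 701 and 939 counts. The libraries are bulk tissue, in which fewer cells of a type and less RNA per cell cannot be told apart. WT 1 stood apart from the other libraries in collagen and islet genes. In cycling genes WT 1 was highest and WT 2 lowest. The values are given beside the results they touch.

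None of the ERK feedback and output genes passed the test between genotypes, and Etv5, at 0.432 times its WT level in the knockout, had the largest difference. Of the 10 genes, 8 passed the filter on low counts and were tested, 6 of them with a mean lower in CRFR1-KO and 2 higher. None of the 8 passed edgeR's quasi-likelihood test after Benjamini-Hochberg adjustment over all 15131 genes tested (adjusted p = 0.9999 for each), where 0.0264% of all genes passed. DESeq2 called 0 of the 8 and limma-voom 0, against 0.391% and 0% of all genes. Etv5 alone had an unadjusted p under 0.05, on the lower side, as did 3.15% of all genes. On the higher side 0 of the 8 did, against 1.71% of all genes. The median log2 fold change of the 8 genes was -0.16, beside -0.01 over all tested genes, and 50.8% of all tested genes were lower in CRFR1-KO.

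**Figure D1:**
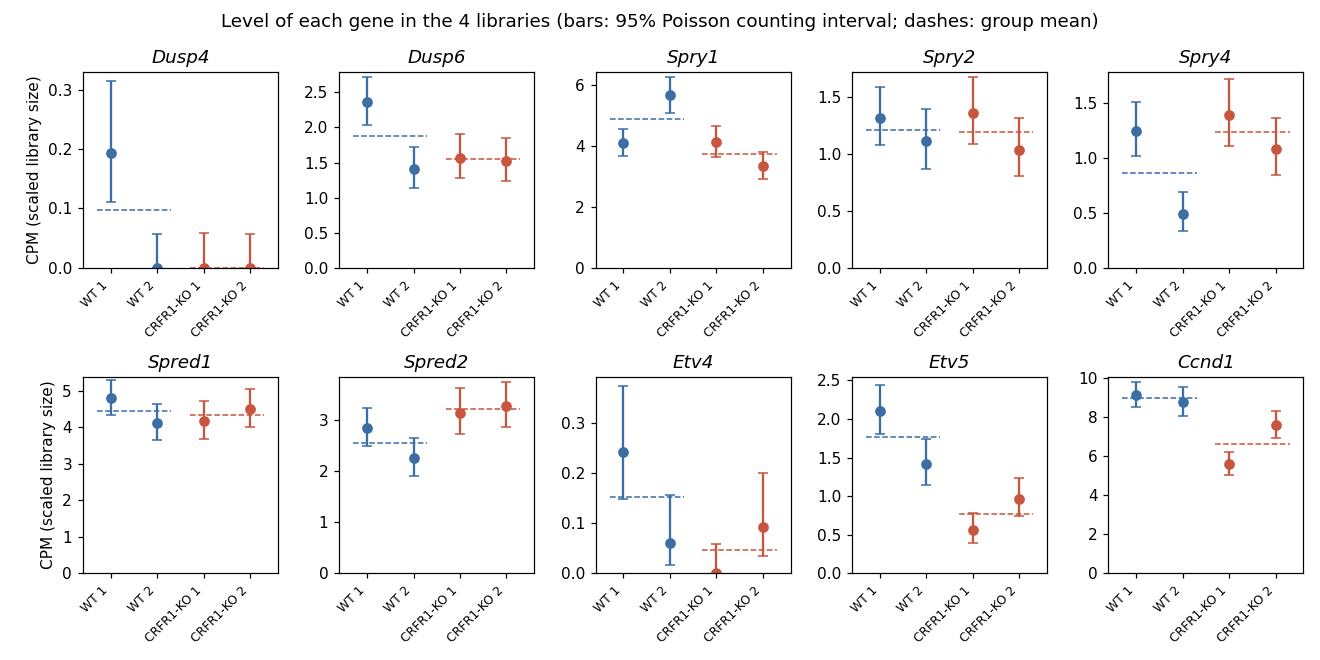
Level of each of the 10 genes in each library, in CPM (counts per 1e+06 of the TMM-scaled library size), on axes that start at 0. Points are libraries (blue WT, red CRFR1-KO), bars are 95% Poisson intervals that cover counting error only, and dashes are group means. Etv5 and Ccnd1 lie below the WT range in each knockout library, Spred2 is higher in both, and Dusp6, Spry4 and Dusp4 differ mainly between WT 1 and WT 2.

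Etv5 (ENSMUSG00000013089; chromosome 16, 22381309 to 22439719, minus strand, GRCm38 in GENCODE M21) encodes an ETS factor of the PEA3 group. It stood at 2.10 and 1.42 CPM in WT libraries 1 and 2, with 0.560 and 0.962 CPM in the knockout libraries 1 and 2. These levels rest on 174, 93, 35 and 63 counts. Both CRFR1-KO libraries lay below both WT libraries, and the groups did not overlap. The means were 1.76 ± 0.48 CPM for WT against 0.761 ± 0.284 CPM for the knockout (SD, n = 2 per genotype), a log2 fold change of -1.21 with an SE of 0.45 (edgeR adjusted p = 0.9999; unadjusted p = 0.0306). The 95% interval of the fold ran from 0.207 to 0.902 times the WT level. Without WT 1 the log2 fold change was -0.90, and without CRFR1-KO 1 it was -0.87. The 95% Poisson interval reached down to 1.15 CPM in WT 2 and up to 1.23 CPM in CRFR1-KO 2, so the intervals of the nearest pair of libraries overlapped.

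The promoter windows of Etv5 are printed because it had the largest difference of the 8, beside those of Spry1, the most abundant Sprouty gene, Dusp6, the ERK phosphatase gene, and Spred2, which lay on the higher side. RefSeq promoter windows (GRCm38.p6, 250 bases before to 50 after a start) matched 6 of the 10 genes, Etv5 with 2 windows. Dusp4, Spry4, Etv4 and Ccnd1 are named without one. Each sequence runs 5′ to 3′ on the gene's strand, before the start and outside the gene's own GENCODE M21 exons, at chr16:22439720-22439820 and chr16:22438369-22438618 (minus strand) for Etv5, chr3:37639697-37639946 (plus) for Spry1, chr10:99262981-99263230 (plus) for Dusp6 and chr11:19924192-19924374 (plus) for Spred2. The second Etv5 window lies within the annotated gene, outside its exons. Capitals mark matches, on either strand, to the ETS core GGAAG or the GC box GGGCGG.
Etv5 first window: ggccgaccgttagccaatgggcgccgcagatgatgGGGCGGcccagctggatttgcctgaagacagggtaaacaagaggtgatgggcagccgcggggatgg
Etv5 second window: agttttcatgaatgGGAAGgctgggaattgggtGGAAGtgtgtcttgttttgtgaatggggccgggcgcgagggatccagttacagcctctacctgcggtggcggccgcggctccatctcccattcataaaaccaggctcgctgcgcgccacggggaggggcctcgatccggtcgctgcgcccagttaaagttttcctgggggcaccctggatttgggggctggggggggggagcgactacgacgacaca
Spry1: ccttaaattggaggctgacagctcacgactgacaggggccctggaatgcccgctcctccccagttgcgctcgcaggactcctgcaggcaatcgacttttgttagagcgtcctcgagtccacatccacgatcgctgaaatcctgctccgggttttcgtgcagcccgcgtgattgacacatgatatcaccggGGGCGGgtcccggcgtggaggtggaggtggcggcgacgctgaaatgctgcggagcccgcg
Dusp6: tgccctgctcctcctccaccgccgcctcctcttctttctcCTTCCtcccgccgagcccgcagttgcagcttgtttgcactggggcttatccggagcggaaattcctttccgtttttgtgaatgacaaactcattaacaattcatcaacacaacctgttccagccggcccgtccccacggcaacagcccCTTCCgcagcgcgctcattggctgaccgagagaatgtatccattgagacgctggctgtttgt
Spred2: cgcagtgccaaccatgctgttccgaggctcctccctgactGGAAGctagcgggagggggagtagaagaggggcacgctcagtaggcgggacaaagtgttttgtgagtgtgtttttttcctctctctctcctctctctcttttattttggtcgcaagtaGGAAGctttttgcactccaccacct

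The ETS core GGAAG, the short sequence ETS factors such as ETV5 recognise, occurred in 71.4% of all 32851 windows of this length, so a match is common. Over the whole windows it had 0 matches in Spry1 and in the first Etv5 window, 4 in the second Etv5 window, 2 in Dusp6, 2 in Spred1, 5 in Spred2 and 1 in Spry2. The longer ETS motif CCGGAAG, present in 8.86% of all windows, had 0 matches in these 7 windows. The AP-1 motif TGANTCA (7.81% of all windows) and the CArG box bound by serum response factor (1.63%) had 0 matches as well. The CRE half-site TGACG (20.8%) was found in Spred2 alone, once. The GC box, in 35.7% of all windows, had 3 matches in Spred1, 3 in the first Etv5 window, 1 in Spry1 and 1 in Spred2. The ETS core lies within the longer ETS motif. GC content ran from 57.0% in Spred2 to 74.0% in the first Etv5 window, beside a median of 52.7% over all windows.

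Etv4 (ENSMUSG00000017724; chromosome 11, 101769742 to 101785371, minus strand), the close relative of Etv5, was barely detected. Its counts were 20 and 4 in the WT libraries, and 0 and 6 in knockout libraries 1 and 2. WT 1 was highest and the groups overlapped. It did not pass the filter on low counts and was not tested. In the table a count of 4 is more frequent than its neighbours (in WT 1, 913 genes have a count of 4, against 349 with 3 and 242 with 5), so it is not known whether 1 count is 1 read, and Poisson intervals refer to the counts as given.

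Ccnd1 (ENSMUSG00000070348; chromosome 7, 144929931 to 144939925, minus strand) encodes cyclin D1, the partner of CDK4 and CDK6 in leaving G1. Its level was 9.15 and 8.80 CPM in WT libraries 1 and 2, with 5.62 and 7.61 CPM in the knockout libraries 1 and 2. WT libraries were close to each other, and both CRFR1-KO libraries were lower, so the groups did not overlap. The means were 8.98 ± 0.25 CPM for WT against 6.61 ± 1.41 CPM for the knockout (SD, n = 2 per genotype), a log2 fold change of -0.44 with an SE of 0.21 (edgeR adjusted p = 0.9999; unadjusted p = 0.0707). The difference rested more on CRFR1-KO 1, without which the log2 fold change was -0.24. Of the 4709 exon bases of Ccnd1, 1100 overlap LTO1 on the other strand, which had between 156 and 275 counts, and whether counting used strand is not known. Of the 8 tested genes, 2 had both CRFR1-KO libraries below both WT libraries, against 16.9% of all tested genes, and 1 had both above, against 16.6%.

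Of the phosphatase genes, Dusp6 (ENSMUSG00000019960; chromosome 10, 99263231 to 99267489, plus strand) encodes the cytoplasmic phosphatase specific for ERK, a much used marker of ERK output. It stood at 2.36 and 1.41 CPM in WT libraries 1 and 2, with 1.57 and 1.53 CPM in the knockout libraries 1 and 2. WT 1 was high and the other 3 libraries lay together, with WT 2 the lowest, so the groups overlapped. The log2 fold change came to -0.29 (SE 0.37), with an edgeR adjusted p = 0.9999, and the 95% interval of the fold ran from 0.445 to 1.51 times WT. Without WT 1 the log2 fold change of Dusp6 was 0.14, on the higher side. WT 1 held 1.68 times the level of WT 2, a larger gap than that between the genotypes.

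Dusp4 (ENSMUSG00000031530; chromosome 8, 34807297 to 34819894, plus strand) encodes a nuclear MAP kinase phosphatase. It had 16 counts in WT 1 and 0 in WT 2 and both CRFR1-KO libraries. A floor of 3 counts corresponds to 0.0458 CPM in WT 2 and to 0.0480 and 0.0458 CPM in the knockout libraries, against 0.194 CPM measured in WT 1. Dusp4 was therefore detected in WT 1 alone, was not tested, and could not be compared between genotypes at this depth.

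Of the Sprouty genes, Spry1 (ENSMUSG00000037211; chromosome 3, 37639947 to 37644598, plus strand) was the most abundant. It stood at 4.11 and 5.67 CPM in WT libraries 1 and 2, with 4.14 and 3.34 CPM in the knockout libraries 1 and 2. WT 2 was high, WT 1 and CRFR1-KO 1 were level, and the groups overlapped. The log2 fold change came to -0.38 (SE 0.26), with an edgeR adjusted p = 0.9999, and the 95% interval of the fold ran from 0.504 to 1.17 times WT. Its exons overlap the opposite-strand gene Gm42922, which had at most 5 counts in a library, over 710 bases. Spry1 was the only one of the 8 tested genes with its highest level in WT 2. Its log2 fold change was -0.13 without WT 2 and -0.60 without WT 1.

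Spry2 (ENSMUSG00000022114; chromosome 14, 105891947 to 105896819, minus strand) encodes the Sprouty that also binds the ubiquitin ligase CBL. It stood at 1.32 and 1.12 CPM in WT libraries 1 and 2, with 1.36 and 1.04 CPM in the knockout libraries 1 and 2. Each genotype had a higher and a lower library at nearly the same levels, and the log2 fold change came to -0.02 (SE 0.39). The 95% interval of the fold, 0.518 to 1.87 times WT, leaves room for a difference in either direction.

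Spry4 (ENSMUSG00000024427; chromosome 18, 38586247 to 38601415, minus strand) stood at 1.25 and 0.489 CPM in WT libraries 1 and 2, with 1.39 and 1.08 CPM in the knockout libraries 1 and 2. WT 2 was low, with 32 counts, and WT 1 lay between the CRFR1-KO libraries. The gap between WT 1 and WT 2 was 2.55 times. On the counts as given, their 95% Poisson intervals, 1.02 to 1.51 CPM and 0.334 to 0.690 CPM, did not overlap. Whether 1 count is 1 read is not known, so the counting error may be larger. The log2 fold change came to 0.51 (SE 0.54), with an edgeR adjusted p = 0.9999. It rested on WT 2 and was -0.005 without that library and 1.34 without WT 1.

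The SPRED genes encode membrane-bound inhibitors that bring the RAS GTPase-activating protein neurofibromin to RAS. Spred1 (ENSMUSG00000027351; chromosome 2, 117121374 to 117182279, plus strand) was the steadiest of the 8 over the 4 libraries, at 4.80 and 4.12 CPM in WT libraries 1 and 2, with 4.18 and 4.51 CPM in the knockout libraries 1 and 2. The groups overlapped, and the log2 fold change came to -0.04 (SE 0.22). The 95% interval of the fold ran from 0.682 to 1.39 times WT. Spred2 (ENSMUSG00000045671; chromosome 11, 19924375 to 20024026, plus strand) stood at 2.84 and 2.25 CPM in WT libraries 1 and 2, with 3.14 and 3.27 CPM in the knockout libraries 1 and 2. Both CRFR1-KO libraries were above both WT libraries, by a log2 fold change of 0.33 with an SE of 0.27 (edgeR adjusted p = 0.9999), and the 95% interval of the fold ran from 0.815 to 1.94 times WT.

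**Figure D2:**
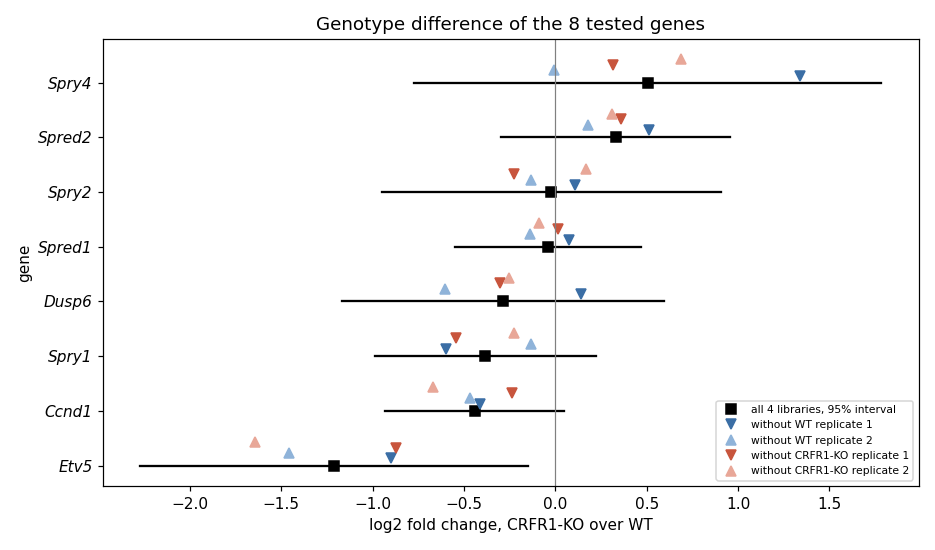
Log2 fold change of CRFR1-KO over WT for the 8 tested genes. Squares with lines are the edgeR estimate from all 4 libraries with its 95% interval, and triangles are estimates with 1 library left out, which leaves its group a lone library. The interval of Etv5 (-2.27 to -0.15) lies below 0 before adjustment, the other 7 include 0, and Dusp6, Spry2, Spred1 and Spry4 change sign when a library is left out.

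In 5 of the 8 tested genes the gap between the WT libraries was larger than that between the genotype means (on log2 of CPM with 0.5 added). Counting the gap within either genotype, the number was again 5 of 8, against 78.1% of all tested genes. WT 1 was the highest library for 4 of the 8, against 26.1% of all tested genes, and the lowest for 0. WT 2 was the lowest for 4 of the 8, against 28.4% of all tested genes. The median of the 8 centred log2 levels was 0.16 for WT 1 and -0.08 for WT 2, while the knockout libraries had -0.05 and -0.06. WT 1 was the high library, and WT 2 lay with the knockout libraries. Leaving out WT 1 put 3 of the 8 genes on the lower side in CRFR1-KO, at a median log2 fold change of 0.09. Leaving out WT 2 moved this value to -0.30, and 9 of 10 genes then lay lower. Those 10 take in Dusp4 and Etv4, which passed the filter there through WT 1, so their lower side was fixed. The gene sets are unlike, and these medians and counts cannot be set against each other.

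Cycling and collagen genes were highest in WT 1. Cycling genes summed to 26.7 CPM in WT 1, 8.16 CPM in WT 2 and 16.2 CPM in each CRFR1-KO library, and 11 of 11 tested members were highest in WT 1. Mki67, a marker of dividing cells, had 410 counts in WT 1 against 7 in WT 2, with 56 and 116 in the knockout libraries. Fibroblast markers summed to 508 and 241 CPM in WT libraries and 167 and 188 CPM in knockout libraries, with 11 of 12 lower in CRFR1-KO. The WT 1 excess in this sum was largest in Col1a1, Col1a2 and Col3a1, singled out after their values were seen. They summed to 377 CPM in WT 1, 105 CPM in WT 2 and 84.0 and 92.9 CPM in the knockout. The other 9 fibroblast markers summed to 131 and 137 CPM in WT and to 82.9 and 95.1 CPM in the knockout, lower in both knockout libraries. Some of these 9 were also higher in WT 1, such as Lum (16.1 against 7.8 CPM in WT 2) and Postn (13.6 against 5.9 CPM). Dcn (65.7 against 88.4 CPM), Pdgfra and Pi16 were higher in WT 2. Of all 12 fibroblast markers, 7 stood in WT 1 at 1.5 times WT 2 or more, against 18.5% of all tested genes. For 9 of the 12, both CRFR1-KO libraries lay below both WT libraries, against 16.9% of all tested genes. An unadjusted edgeR p under 0.05 on the lower side was found for 8, against 3.15%. After adjustment edgeR and limma-voom called 0 of the 12 (0.0264% and 0% of all genes). DESeq2 called 2, Postn and Mfap5, against 0.391% of all genes. Macrophage markers summed to 128 and 95.5 CPM in WT libraries and 46.4 and 75.3 CPM in knockout libraries, with 9 of 9 lower. WT 1 was the highest library for 9 of these 9, against 26.1% of all tested genes. Both CRFR1-KO libraries lay below both WT libraries for 6 of the 9, against 16.9% of all tested genes. Duct markers summed to 276 and 191 CPM in WT libraries and 171 and 161 CPM in knockout libraries, with 5 of 8 lower. Mural cell markers were not high in WT 1, at 31.2 and 32.9 CPM in WT and 24.99 and 32.08 CPM in the knockout, with 6 of 6 tested genes lower. No fibroblast, macrophage, duct or cycling gene listed was at 0 in all libraries. Etv5 and Ccnd1 ran in the same direction as the fibroblast and macrophage lists, and the part of these cells in their levels was not tested.

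**Figure D3:**
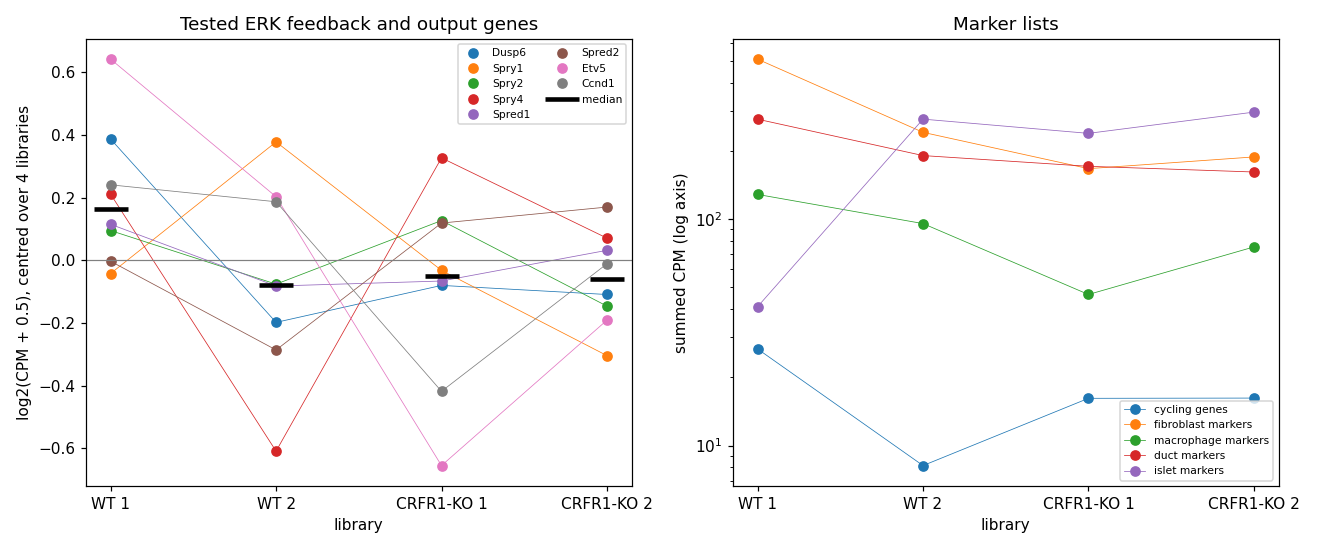
Left, log2(CPM + 0.5) of the 8 tested genes in each library, centred on each gene's mean over the 4 libraries, with black bars for the median and thin lines joining the points of 1 gene. Right, summed CPM of 5 marker lists by library on a log axis. The gene median is highest in WT 1 (0.16), where cycling and fibroblast sums are also highest (26.7 and 508 CPM) and the islet sum is lowest (41.0 CPM).

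Compared per length, as CPM per kilobase of merged exons in GENCODE M21, Ccnd1 and Spry1 were the most abundant of the 10, at 1.66 ± 0.34 and 1.49 ± 0.33 (SD over the 4 libraries). They exchanged places between libraries and did not differ beyond their spread. Spred1 (0.649 ± 0.046), Spred2 (0.622 ± 0.098), Spry2 (0.579 ± 0.074) and Dusp6 (0.547 ± 0.139) came next, each with a range that overlapped its neighbour's, while Spry1 lay above Spred1 in 4 of 4 libraries with no overlap. Etv5 followed at 0.308 ± 0.162 and Spry4 at 0.221 ± 0.083, and the overlap of neighbouring ranges went on from Dusp6 to Etv5 and from Etv5 to Spry4. Etv4 (0.0318) and Dusp4 (0.0177) came last. On this scale Ccnd1 lay above 70.7% of all tested genes and Etv5 above 28.8%.

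Ligands and receptors feed the cascade that these genes report on, and receptors were the pathway list with the lowest median. Of 14 growth factor receptor genes, all tested, 12 were lower in CRFR1-KO and 2 higher, with a median log2 fold change of -0.35. None passed the edgeR adjusted threshold, and DESeq2 and limma-voom called 0, while 4 had an unadjusted p under 0.05 on the lower side, as did 3.15% of all tested genes. These were Fgfr2, Pdgfra, Fgfr3 and Fgfr4, the last pair named after their values were seen. Both CRFR1-KO libraries lay below both WT libraries for 6 of the 14, against 16.9% of all tested genes.

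Fgfr2, a receptor for fibroblast growth factors, stood at 4.33 and 4.95 CPM in WT libraries and 2.88 and 1.97 CPM in knockout libraries (a log2 difference of -0.94 with SE 0.28 and an edgeR adjusted p of 0.888). It shares exons with another gene model, and with the models summed its log2 fold change was -0.51. Pdgfra, a platelet-derived growth factor receptor that also marks fibroblasts, stood at 8.55 and 11.8 CPM in WT libraries and 5.34 and 6.66 CPM in knockout libraries (a log2 difference of -0.76 with SE 0.23 and an edgeR adjusted p of 0.899). Fgfr3 and Fgfr4 had log2 fold changes of -0.61 and -1.37 (edgeR adjusted p = 0.953 and 0.968). The fibroblast list, which holds Pdgfra, was lower as well, and its part in the receptor values was not tested. Without WT 1 the receptor median was -0.32, with 10 of 14 genes lower. Fgfr1 was the most abundant receptor per length, at 2.31 CPM per kilobase.

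Growth factor ligands divided, with 7 of 13 tested genes lower and 6 higher (median log2 fold change -0.08; 0 at an unadjusted p under 0.05, and 0 called by edgeR, DESeq2 or limma-voom). Egf, the epidermal growth factor gene, stood at 41.7 and 34.5 CPM in WT libraries and 53.7 and 47.0 CPM in knockout libraries (a log2 difference of 0.40 with SE 0.19). Kitl, the ligand of KIT on which mast cells depend, stood at 4.38 and 5.39 CPM in WT libraries and 3.55 and 3.68 CPM in knockout libraries (a log2 difference of -0.43 with SE 0.23). The groups did not overlap for either gene, and neither passed the edgeR adjustment (adjusted p = 0.9999 for both). Vegfa was the most abundant ligand per length, at 8.02 CPM per kilobase.

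The RAS proteins, adaptors and kinases were balanced, with 11 of 22 tested genes lower and 11 higher and a median log2 fold change of 0.005. Nras, a RAS gene, stood at 5.96 and 5.73 CPM in WT libraries and 4.80 and 3.96 CPM in knockout libraries (a log2 difference of -0.42 with SE 0.21). Mapk3, encoding ERK1, was the most abundant per length at 7.04 CPM per kilobase. DESeq2 and limma-voom called 0 of the 22.

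Kinase and transcription factor substrates of ERK had 9 of 13 tested genes lower, with a median of -0.17 and 0 at an unadjusted p under 0.05. Rps6ka2, an RSK kinase, had a log2 fold change of -0.56 (SE 0.32) and the ETS factor Elk3 of -0.37 (SE 0.26). With 1 library left out these ran from -0.86 to -0.18 for Rps6ka2, the smallest without WT 2, and from -0.66 to -0.12 for Elk3, the smallest without CRFR1-KO 1. Mknk1, a kinase acting on translation initiation, was the most abundant at 22.5 CPM per kilobase. Other MAP kinase phosphatases had 5 of 6 tested genes lower, with a median of -0.10 that moved to -0.35 without CRFR1-KO 1 and to -0.03 without WT 2. Dusp8 (log2 fold change -0.63, SE 0.36) stood at 5.47 CPM in WT 2 and between 2.56 and 2.69 CPM in the other 3 libraries, and its log2 fold change was -0.03 without WT 2. Dusp16 had -0.30 (SE 0.22). Dusp7 was the most abundant at 1.45 CPM per kilobase. None of these lists held a gene called by edgeR, DESeq2 or limma-voom.

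Further feedback and output genes, listed apart from the 10, had 10 of 16 tested genes lower and 6 higher, with a median log2 fold change of -0.22. The number called was 0 by edgeR, DESeq2 and limma-voom, and 0 had an unadjusted edgeR p under 0.05. Errfi1, an inhibitor of the EGF receptor, had a log2 fold change of -0.39 (SE 0.24) and the RAS inhibitor Rasa1 of -0.26 (SE 0.16). Tob1, an antiproliferative gene whose product ERK phosphorylates, was the most abundant at 26.4 CPM per kilobase. The median of this list was -0.07 without WT 1 and -0.08 without CRFR1-KO 2.

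A further list held ubiquitin ligase genes and partners of the Sprouty and ETV proteins. In it 6 of 11 tested genes were lower, with a median of -0.07 and 0 called. Which proteins the ligases act on was not tested. Fbxo31, an F-box subunit of a ubiquitin ligase, stood at 43.9 CPM in WT 2 and between 20.9 and 23.4 CPM elsewhere (log2 fold change -0.54, SE 0.33), which became 0.10 without WT 2. Siah2, a ubiquitin ligase of Sprouty proteins, had a log2 fold change of 0.44 (SE 0.29).

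Genes that act with cyclin D1 had 7 of 12 tested members lower and a median of -0.04, which was 0.35 without WT 1. Cdkn1a, encoding the CDK inhibitor p21 and a target of p53, stood at 7.20 and 14.9 CPM in WT libraries and 1.18 and 3.41 CPM in knockout libraries. Its counts were 595, 977, 74 and 223, and the groups did not overlap. The log2 fold change came to -2.26 (SE 0.53), which missed the edgeR threshold (adjusted p = 0.718) and passed in DESeq2 (adjusted p = 0.00312), while limma-voom called 0 members of the list. With 1 library left out it ran from -3.21 (without CRFR1-KO 2) to -1.64 (without WT 2). Ccnd3, another D cyclin, stood at 13.3 and 10.8 CPM in WT libraries and 16.3 and 16.0 CPM in knockout libraries (a log2 difference of 0.42 with SE 0.18 and an edgeR adjusted p of 0.9999), the opposite side from Ccnd1. The difference between Ccnd1 and Ccnd3 was not tested. Cdk4, their kinase partner, was the most abundant at 4.97 CPM per kilobase.

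**Figure D4:**
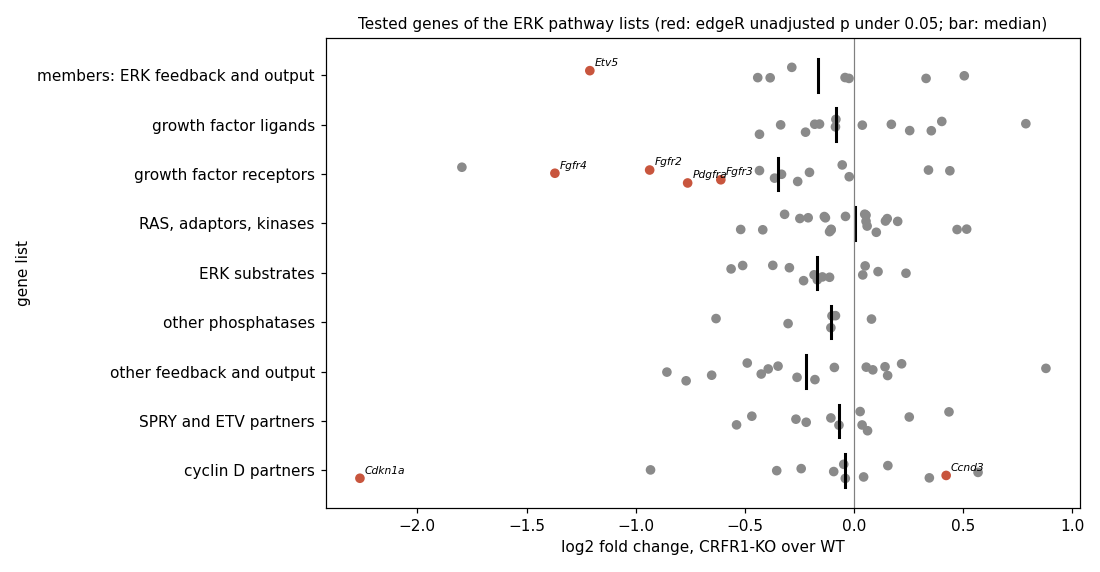
Log2 fold change of CRFR1-KO over WT for the tested genes of the 10 and of 8 ERK pathway lists (1 gene of the RAS list counts in its median but is not drawn), with a black bar for each list's median and red for an edgeR unadjusted p under 0.05. The receptor list has the lowest median (-0.35) and Cdkn1a the lowest value (-2.26), and no gene shown passed the edgeR adjusted threshold.

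The genes whose levels over the 4 libraries were most like the median of the 8 tested genes were Tk2, Mms19, Gnai2, Prrc2b, Eif4enif1 and Zfp787, among 5904 other genes with a mean of at least 5 CPM. Likeness was the root mean square distance between centred log2 levels, which was 0.011 for Tk2 and 0.021 for Zfp787. The 8 genes themselves lay farther from their own median, between 0.053 for Spred1 and 0.416 for Etv5. All 6 had WT 1 as the highest library, and their log2 fold changes lay between -0.12 and -0.09. The 6 were picked for closeness to this median, in which WT 1 is highest, so these traits follow from the choice.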

How the data were processed

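The authors deposited raw whole-number counts, a row for each Ensembl gene and a column for each library. Per the labels' protocols, mRNA was selected on oligo(dT) beads and libraries were strand-marked with dUTP. FastQC, DESeq2 and edgeR are listed, per the submitters' processing notes. The aligner, counter, strand setting and build: not given in the sources used here. Symbols, positions and exon lengths came from GENCODE M21, in which none of the 10 genes shares exon bases with another model on its own strand.

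Genotypes were compared using edgeR 4.0.16 under R 4.3.3 (TMM scaling, filterByExpr, quasi-likelihood test, two-sided, genotype as the sole term), with Benjamini-Hochberg adjustment over all tested genes at 0.05. SE values derive from the F statistic. CPM use the scaled library sizes. An exact test of single values with 2 libraries against 2 could not reach 0.05, so none was used. The fit was tested on simulated data. Alternatives included DESeq2 1.42.0 and limma 3.58.1. The genes and lists were chosen with earlier results of these data known. Named pathway genes are the 2 with the smallest p and the most abundant of each list. One such gene is not reported here.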

Additional observations from a re-analysis of the deposited data

How the results depend on the processing

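Of the 17 alternatives, none called any of the 10 genes. The number of all genes called moved from 4 to 58 with the DESeq2 Wald test, to 0 with limma-voom, to 0 with exon-sharing models summed and to between 0 and 69 with 1 library left out. With the replicate number as a block it was 7, with 0 of the 8 genes called and a median log2 fold change of -0.14 in them, and the deviations of same-numbered libraries did not correlate (-0.0747 over 15131 genes). With 1 library left out, the lone library of its group was assumed to vary like the others. Between 3 (of 8 tested) and 9 (of 10 tested) genes were then lower. Their median ran from -0.303 to 0.090, the highest value being without WT 1. Fits with 10 genes took in Dusp4 and Etv4, which passed the filter there through WT 1. That fixed their lower side, and the medians rest on unlike gene sets. Leaving out WT 1 turned Dusp6 to 0.140 (between -0.603 and 0.140 over the 4 libraries), Spry2 to 0.106 (-0.227 to 0.169) and Spred1 to 0.075, leaving out CRFR1-KO 1 turned Spred1 to 0.015, leaving out CRFR1-KO 2 turned Spry2 to 0.169, and leaving out WT 2 turned Spry4 to -0.005 (up to 1.338) and Fbxo31 to 0.098 (down to -0.976). Etv5, Ccnd1 and Spry1 were lower and Spred2 higher under all 17, with Etv5 between -1.64 and -0.87. Scaling on library totals moved the median of all genes from -0.01 to -0.13 and that of the 8 genes to -0.32. Cdkn1a passed with DESeq2 (-2.27) and with the block (-2.35). With 1 library left out, list medians ran from -0.20 to 0.15 for ligands and -0.579 to -0.316 for receptors. They ran from -0.107 to 0.088 for the cascade, -0.197 to -0.045 for ERK substrates and -0.348 to -0.032 for other phosphatases. For cyclin D partners they ran from -0.145 to 0.352, and for ubiquitin ligases with Sprouty and ETV partners from -0.224 to 0.028. Over the alternatives Spred2 ran from 0.176 to 0.513, Errfi1 from -0.648 to -0.163, Siah2 from 0.139 to 0.689, Dusp8 from -1.058 to -0.029, Dusp16 from -0.463 to -0.148, Kitl from -0.575 to -0.272, Egf from 0.251 to 0.547, Nras from -0.562 to -0.275, Pdgfra from -0.977 to -0.506 and Fgfr3 from -0.789 to -0.402. Low counts limit Dusp4 and Etv4 most.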

Other observations

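Islet genes, which mark the endocrine cells of the pancreas, differed between the WT libraries more than between the genotypes. Their 8 listed members summed to 41.0 and 276 CPM in WT libraries 1 and 2, with 239 and 297 CPM in the knockout libraries 1 and 2. Endothelial markers were level, at 81.9 and 76.0 CPM in WT libraries and 76.2 and 84.0 CPM in knockout libraries. Among receptors, Erbb4, named after its values were seen, stood at 0.859 and 0.458 CPM in WT libraries and 0.256 and 0.122 CPM in knockout libraries (a log2 difference of -1.80 with SE 0.79) and missed the edgeR threshold (adjusted p = 0.9999).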
